A study of Mus musculus with 3 samples.

Results

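The carbonic anhydrase genes Car2, Car3, Car4, Car5b, Car6, Car8, Car9, Car12, Car13 and Car14 were read across the cell fractions of mouse epididymal fat. Every probe on the array that is not a control and carries one of these 10 names was taken, which gave 16 probes among the 56602 probes of 37324 genes. Another 6 carbonic anhydrase genes, Car1, Car5a, Car7, Car10, Car11 and Car15, had 11 probes and were read beside them. All fractions came from the collagenase-digested epididymal fat of male C57/BL mice aged 20 weeks, and the labels name no transgene or drug. Stromal vascular cells (SVC) were the lower phase of a spin at 9 g for 1 s. The floating cells of that spin were spun again at 226 g for 3 min, which left mature white adipocytes (MWA) on top and small proliferative adipocytes (SPA) as the sediment. SVC and SPA were grown in DMEM to 90% confluency before RNA was taken, and no culture is described for MWA, so culture and cell type cannot be told apart wherever MWA is compared. The sample titles also give MWA another date than SVC and SPA, which share 1, so date cannot be told apart from them either. The fractions were separated by how cells float or sink and not by a marker, so each may hold several cell types. Each fraction was measured on 1 array, there is no replicate, and no p-value is given.

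Carbonic anhydrases are zinc enzymes that turn carbon dioxide and water into bicarbonate and a proton, and back. The family is sorted by where its members sit in or around the cell. Car1, Car2, Car3, Car7 and Car13 are cytosolic, Car5a and Car5b are in mitochondria, Car4, Car9, Car12, Car14 and Car15 face the outside of the cell, and Car6 is secreted. Car8, Car10 and Car11 have lost residues that hold the zinc and are not active enzymes. In fat, bicarbonate is the substrate of pyruvate carboxylase and acetyl-CoA carboxylase on the way to new fatty acids, and Car3 has long been known as an abundant protein of adipocytes and of slow skeletal muscle.

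The probes are 60 bases long. The probe of Car4, a gene whose level was well above background in MWA alone, is shown because it lies over the part of the coding sequence that holds the active site. It is placed by the array annotation at chr11:84777667-84777726 (mm9, plus strand). Its capitals mark the codons for 2 of the histidines that hold the zinc in this family, with a leucine codon between them.
Car4 probe: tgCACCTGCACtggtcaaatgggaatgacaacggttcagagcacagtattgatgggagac

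Upstream sequences of RefSeq (GRCm38.p6) were matched for 6 of the 10 genes, Car4, Car5b, Car6, Car9, Car12 and Car14. They were searched over the 250 bases before the gene start for ACGTG on either strand, the core letters of the element that hypoxia-inducible factors bind, because Car9 is a textbook hypoxia-induced gene. The letters occur in 3 of these 6 windows, those of Car9, Car6 and Car14, and in 16.6% of all 32851 windows of that length. A match is a description of the letters and not of a bound site. The 60 bases around each match are shown so that the place of the match can be compared, with the matched letters in capitals (CACGT is the same element read on the other strand). The Car9 window is chr4:43506966-43507025 on the plus strand and its match begins 18 bases before the start. The Car6 window is chr4:150201252-150201311 on the minus strand, where a match on each strand overlaps the other. The Car14 window is chr3:95904686-95904745 on the minus strand and its match begins 7 bases before the start.
Car9 upstream: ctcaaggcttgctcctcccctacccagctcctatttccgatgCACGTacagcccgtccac
Car6 upstream: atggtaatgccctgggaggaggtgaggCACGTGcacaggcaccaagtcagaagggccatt
Car14 upstream: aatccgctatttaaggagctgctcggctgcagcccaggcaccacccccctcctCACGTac

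A level is given here as the processed signal of a probe divided by the 75th percentile of the processed signal over all spots of its array that are not controls, so that a level of 1 lies at that percentile. SVC had this percentile at a signal of 430, SPA at 439 and MWA at 366. No spot was saturated, and 58.6% to 61.4% of spots were well above background by the scanner software. The lowest readable level, that of the dimmest probe called above background, was 0.0323 for SVC, 0.0284 for SPA and 0.0282 for MWA, and a bound is set from it for probes that were too dim. Errors of a ratio are those of the error model of the scanner software for each signal, combined on the log2 scale, and cover the array and not the animals. Probes spotted several times on 1 array had a median SD of 0.18 to 0.23 log2 at signals of 10 to 50 and of 0.04 above 1000. The adipocyte markers ordered the fractions as their names do: the summed level climbed from 8.77 (SVC) through 79.2 (SPA) to 3085 (MWA), and Adipoq, the gene of adiponectin, had a level of 348 in MWA and 2.96 in SPA and was not well above background in SVC. In RNA from many cells, fewer cells of a type and less RNA per cell cannot be told apart.

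Of the 16 carbonic anhydrase probes, SVC had 8 well above background, SPA 10 and MWA 10. The 7 probes above background on every array belong to Car2, Car3, Car5b, Car9, Car13 and Car14, with both probes of Car9. The 5 probes above background on no array belong to Car8, Car12 and Car14. Between SPA and SVC, 1 of 10 readable probes was at least 5-fold higher in SPA, a probe of Car3, and 0 were 5-fold lower, against 0.267% higher and 0.293% lower over all 34475 readable probes. Between MWA and SPA, 4 of 11 were at least 5-fold higher (the 3 probes of Car3 and that of Car4) and 2 were at least 5-fold lower (Car6 and 1 probe of Car9), against 5.14% and 3.75% of 36473 probes. Between MWA and SVC, 5 of 11 were at least 5-fold higher, Car5b being the addition, and Car6 alone was lower, against 5.35% and 3.78% of 35746 probes. The comparisons share arrays and are not independent of each other. At a limit of 2-fold, 3 probes were higher and 1 lower for SPA over SVC (3.44% and 3.17% of all probes), 5 higher and 3 lower for MWA over SPA (15.6% and 18.4%), and 5 higher and 3 lower for MWA over SVC (16.5% and 18.7%). The median log2 ratio of the carbonic anhydrase probes was 0.45 for SPA over SVC, 0.71 for MWA over SPA and 0.48 for MWA over SVC, beside 0.05, -0.10 and -0.05 over all probes. These medians count Car3 at 3 probes and Car9 at 2. With each member gene at its brightest probe they were 0.54, 0.07 and -0.22, the last with the other sign.

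**Figure D1:**
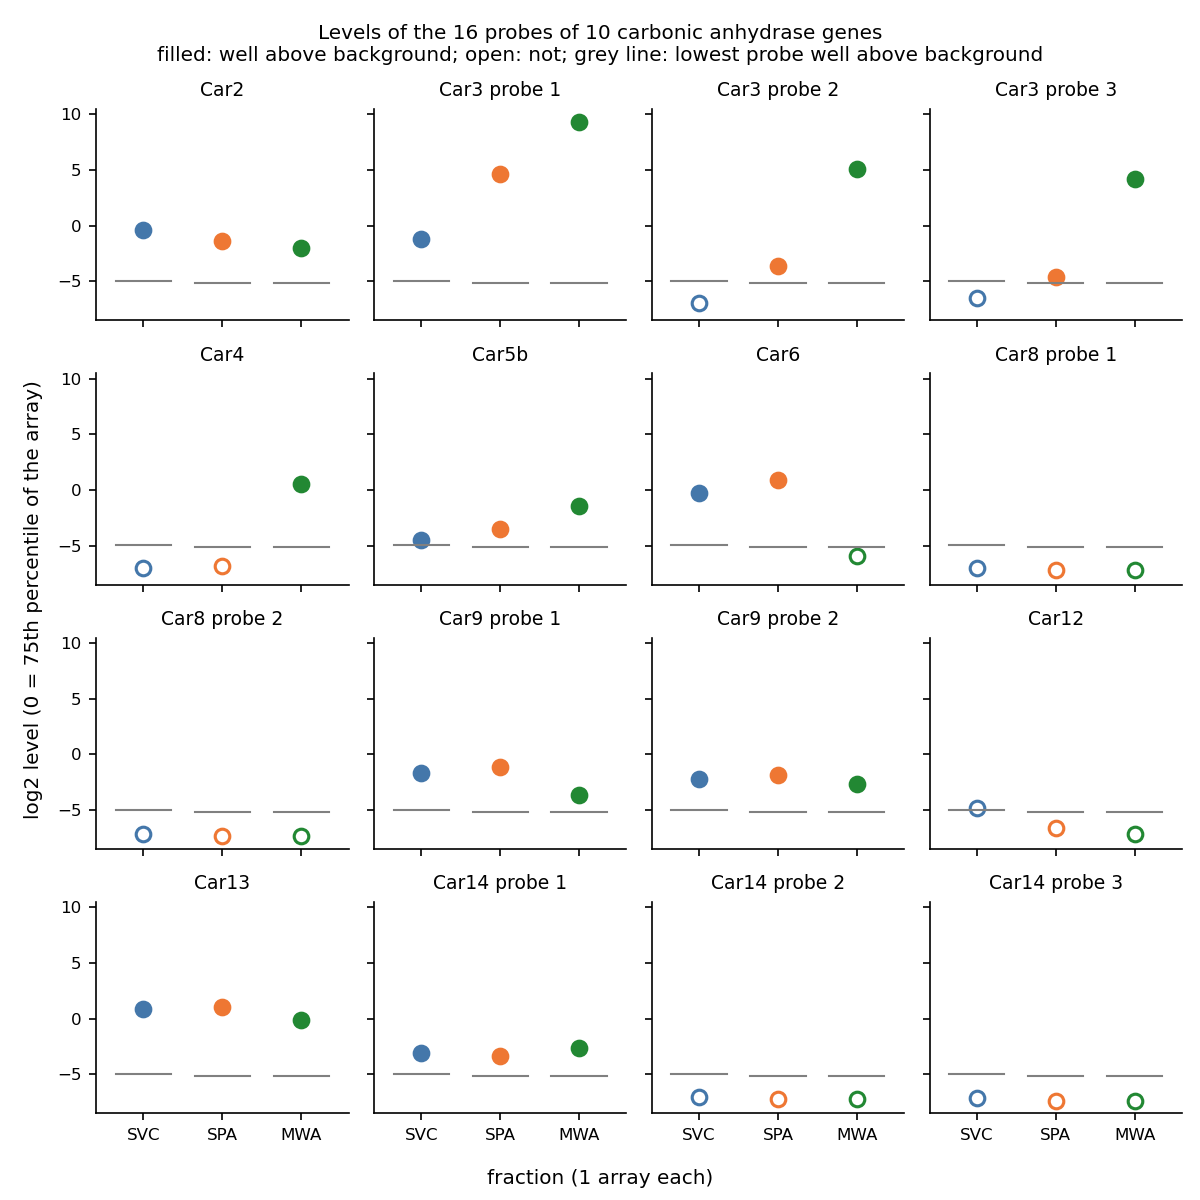
Log2 level (0 is the 75th percentile of the array) of each of the 16 carbonic anhydrase probes in SVC, SPA and MWA, 1 array each. Filled points were well above background, open points were not, and the grey lines mark the lowest probe well above background on each array; Car3 climbs from SVC to MWA at its probe 1, Car4 is filled in MWA alone and Car6 is open in MWA alone.

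Car3, a cytosolic enzyme of low activity, had the largest measured ratio between the fractions among the members. Its first probe, at chr3:14871781-14871840 (mm9, plus strand), read 0.428 in SVC, 25.4 in SPA and 635 in MWA. SPA were 59.3-fold above SVC (log2 5.89 ± 0.21) and MWA 25.0-fold above SPA (log2 4.64 ± 0.20), so that MWA were 1482-fold above SVC. The scanner software marked the local background of this spot as outlying in SPA and in MWA. The raw signal was 368 and 8102 times that local background there, and 7.21 times in SVC. Without marked spots the probe has no ratio, and 0 member probes were 5-fold higher in SPA than in SVC.

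The array annotation gives the first Car3 probe to a RefSeq transcript and the other 2 to 1 Ensembl transcript of the gene. These 2 probes lie 6.608 and 6.303 kb from the first, 305 bases apart from each other. Whether all of them read the same RNA was not tested. The second probe, at chr3:14865173-14865232, read 0.00837 in SVC, not well above background, 0.0808 in SPA and 34.2 in MWA. The third probe, at chr3:14865478-14865537, read 0.0112 in SVC, again not well above background, 0.0413 in SPA and 17.9 in MWA. All probes of Car3 thus had the order SVC, SPA, MWA, and MWA was well apart from the rest at each of them.

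The size of the steps depended on the Car3 probe. SPA were at least 2.50-fold above SVC at the second probe and at least 1.28-fold at the third one. Neither of these bounds reaches the 5-fold limit. The paper lists Car3 among its genes 5 times higher in SPA than in SVC, and here the first probe alone passed that limit. Read from their own dim signals with no bound, the log2 ratios of SPA over SVC were 3.27 and 1.88, both under the 5.89 of the first probe. MWA were 423-fold above SPA at the second probe (log2 8.72 ± 0.24) and 433-fold at the third (log2 8.76 ± 0.31), steps larger than the 25.0-fold of the first probe by more than these errors. With the normexp background correction, which raises dim signals, the log2 ratios of MWA over SPA were 7.11 and 6.48 at these probes and 4.63 at the first. The SPA signals under these steps were dim. In SPA the raw signal was 2.23 times the local background at the second probe and 1.69 times at the third. The spots of the second and the third probe carried no background mark, and no Car3 probe shares a run of 16 bases with a probe of another gene.

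The genes whose ratios were most like those of the first Car3 probe were adipocyte genes. Likeness was the larger of the differences in 2 log2 ratios, SPA over SVC and MWA over SPA, among 19970 genes well above background on all 3 arrays. The closest was Plin4, which codes for a lipid droplet coat protein, with log2 ratios of 5.53 and 5.24 and a largest difference of 0.60. Cfd, the gene of adipsin, followed at 0.83, with ratios of 5.72 and 5.47, although its spot in SPA also carried the background mark. Gpd1, a glycerol phosphate dehydrogenase, lay at 1.89, Trarg1, a regulator of glucose transporter traffic, at 2.09, and Retn, the gene of resistin, at 2.09. Of these 5 genes, Plin4 and Cfd, like probe 1 of Car3, had a larger ratio for SPA over SVC than for MWA over SPA. No error is given for the ratios of Plin4 and Cfd, and whether their small gaps exceed it was not tested. At probes 2 and 3 of Car3 the order was the reverse. Their log2 ratios of SPA over SVC, read from dim signals with no bound, were 3.27 and 1.88. Those of MWA over SPA were 8.72 and 8.76.

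**Figure D2:**
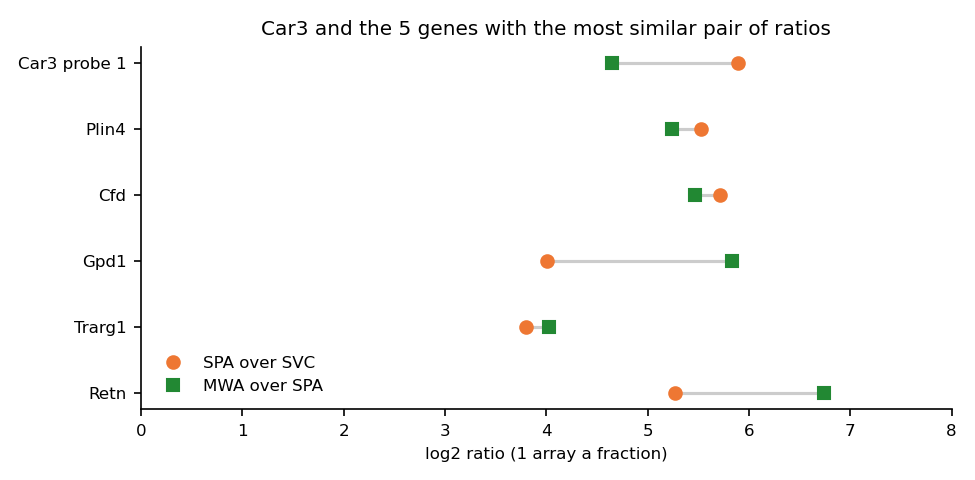
Log2 ratios of SPA over SVC (circles) and of MWA over SPA (squares) for the first probe of Car3 and the 5 genes with the most similar pair of ratios, each from 1 array a fraction. Car3 stands at 5.89 and 4.64, and Plin4 comes closest at 5.53 and 5.24.

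Because Car3 is also a muscle gene, skeletal muscle markers were read beside it. Ckm and Myh1, for muscle creatine kinase and a fast myosin, were not well above background on any array. The 8 muscle markers summed to a level of 9.02 for SVC, 3.83 for SPA and 2.34 for MWA, an order set by Acta1, the skeletal actin gene, which read 8.21 in SVC and 1.38 in MWA. Others went another way, as Pvalb, the gene of parvalbumin, read 0.262, 0.279 and 0.461. Of the 6 readable muscle markers, 0 had a 5-fold excess in MWA over SPA, beside 5.47% of all genes, a count near that background. The list holds no marker particular to slow muscle. The part of muscle in the level of Car3 was not tested.

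Car2, the fast and widely expressed cytosolic enzyme, ran the other way. Its probe at chr3:14900206-14900265 (mm9) read 0.777 in SVC, 0.377 in SPA and 0.253 in MWA. SPA were 2.06-fold below SVC (log2 -1.05 ± 0.21), MWA 1.49-fold below SPA (log2 -0.57 ± 0.21) and MWA 3.07-fold below SVC (log2 -1.62 ± 0.21). Each step was larger than the error within the arrays, and none reached 5-fold.

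Car13, another cytosolic isoform, read 1.81 in SVC, 2.03 in SPA and 0.951 in MWA at chr3:14662332-14662391 (mm9). The cultured fractions differed by 1.12-fold (log2 0.17 ± 0.20), within the error, and MWA were 2.14-fold below SPA (log2 -1.09 ± 0.20). Car13, Car1, Car3 and Car2 lie in that order within 238 kb of chromosome 3. Neighbours in this cluster moved in different directions between SPA and MWA: Car13 and Car2 were lower in MWA, while the first probe of Car1 was 2.38-fold and that of Car3 25.0-fold higher.

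Car1, the carbonic anhydrase of red cells, read 0.134 in SVC, 0.143 in SPA and 0.340 in MWA at its first probe, and its second probe was at least 5.39-fold above SPA in MWA. Erythrocyte markers moved with MWA as well. They summed to a level of 0.407 for SVC, 0.438 for SPA and 719 for MWA. Of 7 readable markers, 5 had at least a 5-fold excess in MWA over SPA (5.47% of all genes did), among them Hba-a1 at a level of 333. Car2 is also a red cell enzyme, and its level was lowest in MWA. The part of red cells in the levels of Car1, Car2 and the other genes was not tested. Car7, a cytosolic isoform best known from brain, read 1.23 in SVC, 1.36 in SPA and 4.14 in MWA, a 3.06-fold step between SPA and MWA.

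**Figure D3:**
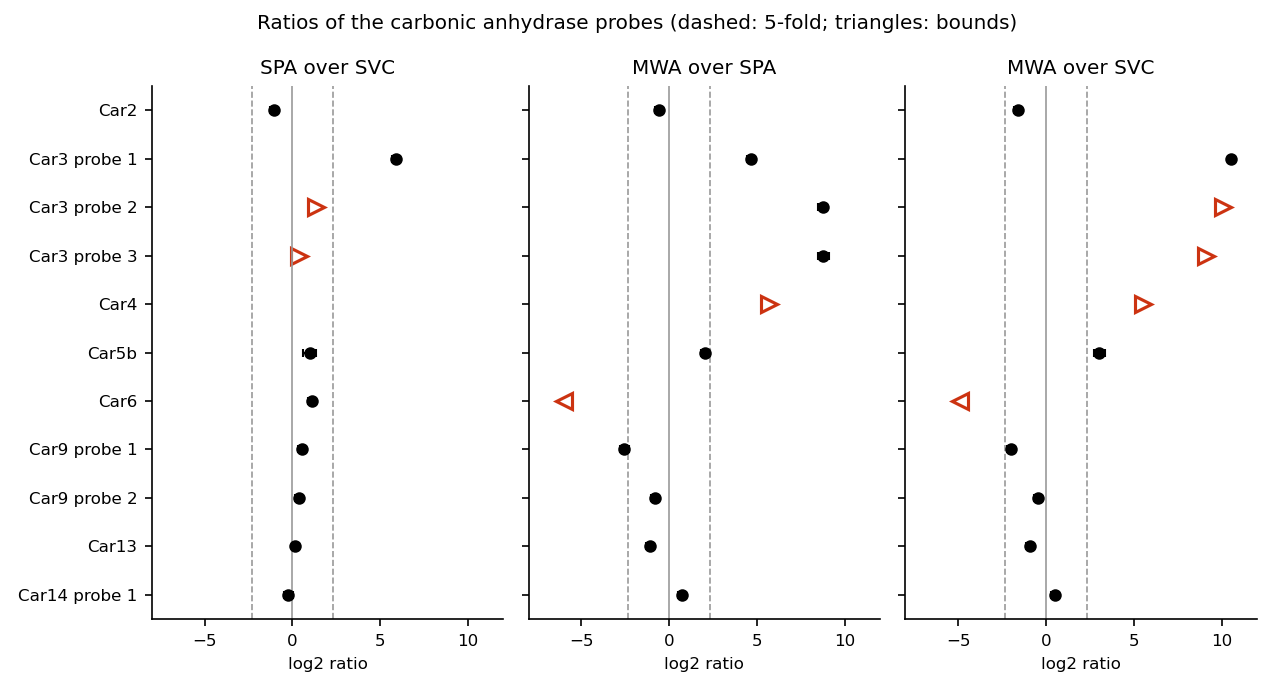
Log2 ratios of the 11 readable carbonic anhydrase probes in the 3 comparisons of fractions, with bars for the error within the arrays where both arrays were well above background and open triangles for bounds where 1 was not. Dashed lines mark 5-fold. For MWA over SPA, Car3 and Car4 lie to the right of them, and Car6 and the first probe of Car9 to the left.

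Car5b, the mitochondrial isoform that many tissues express, had the order SVC, SPA, MWA. Its probe at chrX:160449906-160449965 (mm9, minus strand) read 0.0442 in SVC, 0.0868 in SPA and 0.362 in MWA. SPA were 1.97-fold above SVC (log2 0.97 ± 0.35), MWA 4.17-fold above SPA (log2 2.06 ± 0.23) and MWA 8.20-fold above SVC (log2 3.04 ± 0.33). The last ratio passed the 5-fold limit, but with the normexp correction it was 1.45 on the log2 scale and did not. The SVC level was 1.67 times the local background in raw signal, close to the lowest that can be read. The Car5b probe shares a run of 16 bases with a probe of 1 other gene. Car5a, the mitochondrial isoform of liver, was not well above background on any array.

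The enzymes that use bicarbonate in mitochondria and cytosol were higher in MWA nearly as a group. Of 7 readable carboxylase genes, 6 had at least a 5-fold excess in MWA over SPA and 0 a 5-fold deficit. Their median log2 ratio was 2.85, beside 5.47% of all genes higher and a median of -0.07. Pcx, pyruvate carboxylase, read 2.21 in SVC, 6.70 in SPA and 133 in MWA, 19.8-fold above SPA. Mccc2 and Mccc1, the subunits of methylcrotonyl-CoA carboxylase of leucine breakdown, were 9.91-fold and 8.18-fold higher. Pcca and Pccb, the propionyl-CoA carboxylase subunits, were 7.19-fold and 6.98-fold higher. Acaca, the cytosolic acetyl-CoA carboxylase, was 6.27-fold higher, whereas Acacb, its counterpart at the mitochondrial surface, differed by 1.14-fold. Cps1, carbamoyl phosphate synthetase of the urea cycle, was not well above background on any array. Between SPA and SVC, 0 of these genes reached 5-fold in either direction, beside 0.32% higher and 0.351% lower over all genes. The widest ratio there was that of Pcx, with SPA 3.04-fold above SVC.

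Car4, which is tethered to the outer face of the plasma membrane, read 0.00782 in SVC and 0.00897 in SPA, neither of them well above background, and 1.47 in MWA. MWA were therefore at least 51.6-fold above SPA and at least 45.5-fold above SVC, log2 bounds of 5.69 and 5.51. With the normexp correction these bounds were 3.33 and 3.22, still past the 5-fold limit. No ratio can be given between SPA and SVC. Car4 is known from capillary endothelium, so the endothelial markers were read beside it. All 8 endothelial markers had at least a 5-fold excess in MWA over SPA, beside 5.47% of all genes, and they summed to a level of 6.10 for SVC, 7.44 for SPA and 119 for MWA. Cldn5, a tight junction protein of endothelium, was 122-fold and Cdh5, the endothelial cadherin, 18.9-fold higher. The endothelial markers were above background in the cultured fractions, in which Car4 was not. The steps of these markers from SPA to MWA ran from 6.70-fold for Pecam1 to 122-fold for Cldn5. They therefore do not tell whether Car4 should be readable in SPA. The part of endothelial cells in the level of Car4 was not tested.

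Car9 is a membrane enzyme that faces outwards and is known for its induction by low oxygen. Its first probe, at chr4:43526518-43526577 (mm9), read 0.312 in SVC, 0.455 in SPA and 0.0775 in MWA. SPA were 1.46-fold above SVC (log2 0.54 ± 0.21), and MWA were 5.86-fold below SPA (log2 -2.55 ± 0.24) and 4.02-fold below SVC. The second probe, at chr4:43526023-43526082, read 0.221 in SVC, where its local background was marked as outlying, 0.283 in SPA and 0.161 in MWA. There MWA were 1.75-fold below SPA (log2 -0.81 ± 0.21). Both probes of Car9 thus were highest in SPA and lowest in MWA, but the sizes differed by more than the errors and 1 of the 2 passed 5-fold. With the normexp correction the ratio of MWA over SPA at the first probe was -1.39 on the log2 scale, under the limit.

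Other hypoxia-induced genes did not move as 1 group between SPA and MWA. Of 11 readable genes, 3 were at least 5-fold lower in MWA, as the first probe of Car9 was: Ankrd37 with a log2 ratio of -2.81, Slc2a1, the glucose transporter, by 6.38-fold and Pgk1, a glycolytic kinase, by 5.27-fold. Another 2 were higher, Bnip3, a mitophagy receptor, by 9.67-fold and Ndrg1 by 5.37-fold. At the median over a gene's probes 4 of these 5 genes still passed the limit, and Pgk1, which has 2 probes, did not. The background was 5.47% of genes higher and 3.97% lower, and the list median was -0.30 beside -0.07. Of the genes whose upstream window holds ACGTG, Car9 and Car6 were lower in MWA than in SPA and Car14 was not. Of those whose window lacks it, Car4 and Car5b were higher in MWA and Car12 was not readable. Car2 and Car13, also lower in MWA, had no window, and a link between the letters and the direction was not tested.

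Car14, a membrane enzyme that faces outwards, was readable at 1 of its 3 probes. That probe, at chr3:95701859-95701918 (mm9, minus strand), read 0.118 in SVC, 0.101 in SPA and 0.164 in MWA. MWA were 1.63-fold above SPA (log2 0.71 ± 0.23), and SPA were 1.17-fold below SVC (log2 -0.23 ± 0.24), within the error. The other two probes of Car14 were not well above background anywhere. Car12, a membrane enzyme of many epithelia, read 0.0359, 0.0103 and 0.00704 in SVC, SPA and MWA, none of them well above background. Car15, a membrane-tethered isoform, read 0.0654 in SVC, 0.268 in SPA and 0.157 in MWA, so that SPA were 4.11-fold above SVC.

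Car6, the secreted isoform known from saliva and milk, was readable in both cultured fractions and not in MWA. Its probe at chr4:149561287-149561346 (mm9, minus strand) read 0.847 in SVC, 1.82 in SPA and 0.0166 in MWA, where it was not well above background. SPA were 2.14-fold above SVC (log2 1.10 ± 0.20). MWA were at least 64.4-fold below SPA and at least 30.0-fold below SVC. It was the one member well above background in both cultured fractions and not in MWA. With the normexp correction the bound between MWA and SVC was -2.31 on the log2 scale, just under the 5-fold limit, and that between MWA and SPA was -3.30 and stayed past it. Some macrophage markers had the same direction: Gpnmb, a gene of lipid-laden macrophages, read 38.3 in SVC, 91.0 in SPA and 0.110 in MWA. For Cd68, MWA were 8.58-fold below SPA. Others did not, since C1qa was 11.3-fold higher. The 8 macrophage markers summed to a level of 159 for SVC, 244 for SPA and 75.1 for MWA, and their part in the level of Car6 was not tested.

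Among the related proteins without enzyme activity, Car8 was not well above background at either probe on any array, with levels between 0.00628 and 0.00798. Car11 read 0.0675 in SVC, 0.123 in SPA and 0.292 in MWA, so that MWA were 2.37-fold above SPA. Car10 read 0.0394, 0.0326 and 0.0525 in SVC, SPA and MWA at its readable probe, and MWA were 1.61-fold above SPA (log2 0.69 ± 0.37). Of the other 6 carbonic anhydrases, read at their brightest probe, 0 of 5 readable genes were 5-fold apart between MWA and SPA, beside 5.47% of all genes higher and 3.97% lower, a count near that background. Those with MWA at least 2-fold above SPA were 3 of the 5, Car1, Car7 and Car11, and 0 were 2-fold lower, beside 15.7% and 18% of all genes.

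The genes whose proteins move bicarbonate, protons and gases differed in direction and size between MWA and SPA. Of 10 readable bicarbonate and chloride transporters, 0 were 5-fold apart between MWA and SPA, beside 5.47% of all genes higher and 3.97% lower, so the count does not set the transporters apart. Slc4a4, the sodium bicarbonate cotransporter, read 2.95 in SVC, 2.29 in SPA and 1.17 in MWA, a 1.97-fold difference between SPA and MWA. Slc4a1, the anion exchanger of red cells, was 2.65-fold higher in MWA. Of 7 readable proton and lactate exporters, Slc16a3, the lactate exporter of glycolytic cells, stood 12.7-fold below SPA in MWA, and Slc16a7, a monocarboxylate carrier, was 5.30-fold higher. Among channels, Aqp1, which is known to pass water and carbon dioxide and is found in endothelium and red cells, stood 88.8-fold above SPA in MWA, and Aqp7, the glycerol channel of adipocytes, 13.1-fold. Adcy10, the adenylyl cyclase that bicarbonate activates, differed by 1.32-fold. Between SPA and SVC, 0 readable genes of these lists were 5-fold apart at their brightest probe. Of all genes, 0.32% were higher and 0.351% lower, so the count is near that background. The paper lists Aqp7 among the genes 5 times higher in SPA than in SVC, and its real-time PCR gave Aqp7 the order SVC, SPA, MWA. Here the brighter of its 2 probes had that order too, with SPA 1.31-fold above SVC. The other probe is not given, so the paper's listing was not tested.

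**Figure D4:**
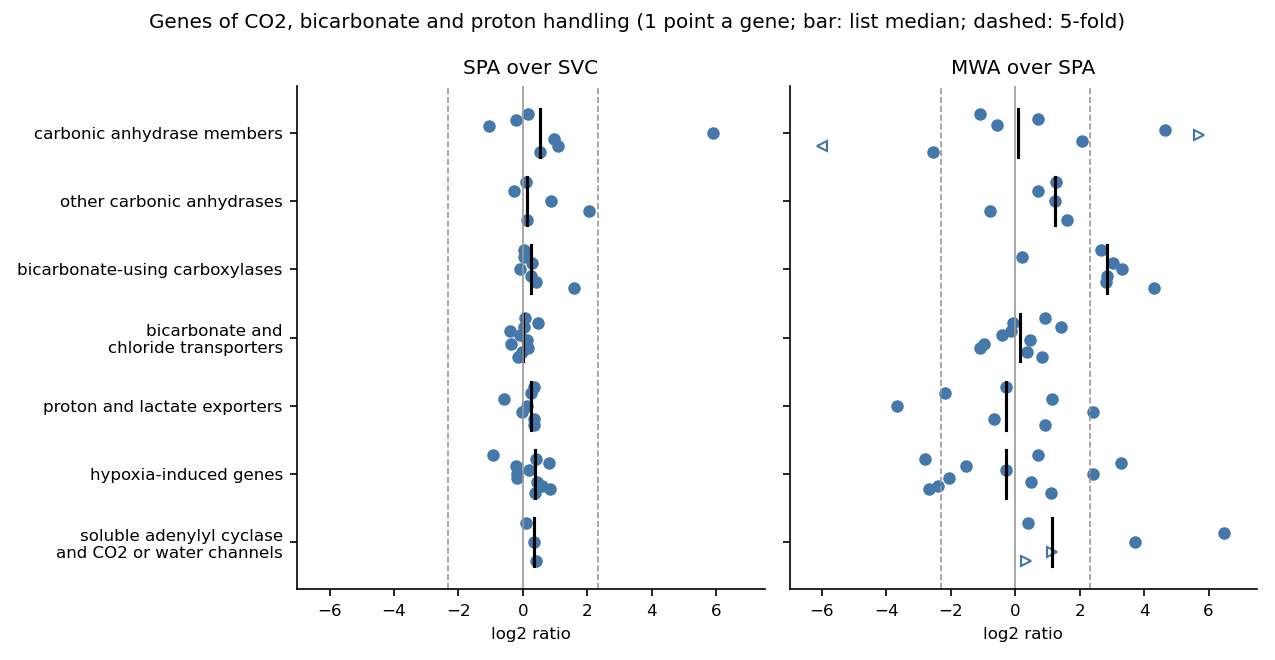
Log2 ratios of SPA over SVC and of MWA over SPA for genes of carbon dioxide, bicarbonate and proton handling, each gene at its brightest probe on 1 array a fraction, with open triangles for bounds, a bar at the median of the list and dashed lines at 5-fold. Between SPA and SVC, Car3 alone lies beyond 5-fold, and between MWA and SPA the carboxylases are centred at 2.85.

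The remaining marker lists give the other cells that the fractions may hold. Mesothelial markers summed to a level of 71.9 for SVC, 17.9 for SPA and 26.7 for MWA, and 5 of 8 had SPA at least 5-fold below SVC, beside 0.351% of all genes. Fibroblast markers summed to 679, 361 and 622 in the same order. Mast cell markers were at 0.354, 0.383 and 1.77, and of the 8 markers of the epididymal epithelium 1, Rnase10, was well above background. Single markers of these lists differed in order, as Msln read 7.77, 1.30 and 10.2 and Dcn 65.8, 46.4 and 181 in SVC, SPA and MWA. The part of these cells in the levels of the carbonic anhydrases was not tested.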

How the data were processed

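Gene expression of SVC, SPA and MWA was measured on 1 Agilent SurePrint G3 Mouse array each (1 colour, Cy3, 50 ng of total RNA). The authors deposited, per the file headers, the processed intensity of each spot from Agilent Feature Extraction 10.7.3.1, after background subtraction within the array, with the raw mean, the local background and an error estimate. They also deposited a table of ratios, which equals the processed signal divided by 1 constant per array within a relative 1.37e-06. The methods of the study name GeneSpring GX and a 5-fold limit, and the normalization is not given in the sources used here.

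Control and outlier spots were left out, spots of 1 probe were averaged, and each array was scaled to its 75th percentile. A probe was readable where at least 1 array of a comparison was well above background, and passed the limit where its fold, or the bound on it, reached 5. Every probe of the members was reported, and genes of the 16 lists were named from those past the limit or too dim to read, with a few others named for comparison after their values were seen. The members and the lists were chosen with earlier results of these data known. Positions of probes are mm9, from the array annotation, which does not name exons or UTRs. Upstream sequences are from RefSeq (GRCm38.p6). A single array a fraction limits the precision, and no interval over animals can be given. Alternatives were the normexp correction with an offset of 50 (R 4.3.3, limma 3.58.1), quantile normalization, the percentile over probes above background on all arrays, the deposited table, no filter, probes above background on both arrays, no spots with outlying background, and the median over a gene's probes. Python 3.11.15, numpy 2.4.6 and pandas 2.3.3 were used. Protein sequences of the members were not analysed here.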

Additional observations from a re-analysis of the deposited data

How the results depend on the processing

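Under 7 alternatives, 207 of 211 recomputed ratios of the carbonic anhydrase probes kept their direction and their side of the 5-fold limit, 3 no longer passed it, 1 newly passed it and 0 reversed. All 3 losses came with the normexp correction (Car9 probe 1 for MWA over SPA, Car5b and Car6 for MWA over SVC), and the gain was Car3 probe 2 for SPA over SVC with no filter. Ratios that a setting removed are outside these counts. Of 32 ratios, 24 were left with probes above background on both arrays. Without spots of outlying background 27 were left. In the first case the ratios of Car4 and Car6 with MWA and of Car3 probes 2 and 3 with SVC were removed. In the second, all ratios of Car3 probe 1 and those of Car9 probe 2 with SVC were. For SPA over SVC the 1 member probe 5-fold higher became 2 with no filter and 0 without spots of outlying background, and over all probes the 92 higher and 101 lower became 34 and 16 with normexp and 373 and 208 with no filter. For MWA over SPA the 2 member probes lower became 1 with normexp and 1 with probes above background on both arrays, and the 1875 higher and 1369 lower of all probes became 975 and 562 with normexp, with 2166 lower with no filter. For MWA over SVC the 5 member probes higher became 2 with probes above background on both arrays, the 1 lower became 0 there and 0 with normexp, and the 1913 and 1351 of all probes became 1009 and 545 with normexp. For MWA over SPA, the 4 member probes higher became 3 with probes above background on both arrays and 3 without spots of outlying background. For MWA over SVC, the 5 member probes higher became 4 with normexp and 4 without spots of outlying background. Read at the median over a gene's probes, the 1 member gene 5-fold apart between SPA and SVC became 0. Between MWA and SPA the 2 proton and lactate exporters became 1 there, the 4 member genes 3 and the 5 hypoxia-induced genes 4. Other small changes in count are not listed. The offset of normexp lifts dim signals by construction, and the settings on filters and marked spots change which probes are read. For Car3 between SPA and SVC the median is the lower bound of its second probe, 1.32 on the log2 scale. The cause of the other changes at the median over a gene's probes was not tested. No paired analysis was possible because each fraction has 1 array. Signals near background limit what can be read of Car4, Car5b, Car6, Car8 and Car12.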
